A study of Mus musculus with 18 samples.

Results

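The expression of 7 genes, Gpr83, Cd200, Syt14, Sgip1, Zfyve28, Gmfg and Bach2, was followed in mouse spleens filled with T-cell acute lymphoblastic leukemia (T-ALL). The 7 genes were picked from 18953 genes in the survival table (18329 in the acute table) because their levels in the second wave of Acly knockout leukemias lay apart from those in all other survival libraries. That difference chose them, so it is described here without a test, while the acute libraries, whose values the rule of choice did not use, are tested. Earlier results of these data were known when the genes were chosen. Acly encodes ATP citrate lyase, the enzyme that turns cytosolic citrate into acetyl-CoA.

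RNA came from leukemic spleens of C57BL/6 mice that had been sub-lethally irradiated and injected intravenously with T-ALL cells carrying a conditional Acly allele, which knockout (KO) and control (WT) mice shared. KO mice received 3 mg of tamoxifen in corn oil, which deletes the allele, and WT mice received corn oil alone, so the effect of tamoxifen itself and that of Acly loss cannot be told apart. The acute groups (KO acute, n = 4, and WT acute, n = 4) were treated once leukemia was overt and collected 48 h later. The survival groups (KO second wave, n = 3, KO first wave, n = 3, and WT survival, n = 4) were treated 48 h after transplant and collected at the humane endpoint. The labels give neither the promoter that drives the recombinase, nor the ages of the mice, nor what set the waves apart, nor whether each library was a different mouse, so the p-values reflect only how far these samples scattered, which may be technical. Values are normalized counts, that is, estimated read counts divided by a library size factor, and the acute and survival tables were normalized separately. Because whole spleen suspensions were sequenced, fewer cells of a type and less RNA per cell cannot be told apart.

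The 7 genes work at the cell surface, on membranes inside the cell and in the nucleus. Gpr83 encodes a G protein-coupled receptor that is glucocorticoid-induced in mouse T cells and enriched in regulatory T cells. Cd200 encodes a surface glycoprotein of the immunoglobulin family that restrains myeloid cells through the receptor CD200R. Syt14 encodes a synaptotagmin that does not depend on calcium, Sgip1 a protein of the FCHo family that binds membranes and takes part in clathrin-mediated endocytosis, and Zfyve28 (LST2) a FYVE-domain protein that limits signalling of the epidermal growth factor receptor from endosomes. Gmfg encodes glia maturation factor gamma, a relative of cofilin that takes apart Arp2/3-branched actin and is abundant in blood cells. Bach2 encodes a transcriptional repressor that pairs with small Maf proteins, holds back effector programmes in lymphocytes and competes with AP-1 factors for DNA.

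All 7 are protein-coding genes on 6 chromosomes, and Sgip1 and Bach2 both lie on chromosome 4. In the GENCODE M21 annotation of GRCm38, Gpr83 spans chr9:14860210-14870789 on the plus strand, Cd200 chr16:45382135-45409053 (minus) and Syt14 chr1:192891233-193035775 (minus). Sgip1 spans chr4:102741297-102973628 (plus), Zfyve28 chr5:34194893-34288449 (minus), Gmfg chr7:28437447-28448233 (plus) and Bach2 chr4:32238804-32586108 (plus). Gmfg overlaps Samd4b on the other strand, and Bach2 overlaps Bach2os on the other strand and Bach2it1 on its own strand. Genes with provisional Gm symbols overlap Zfyve28 on both strands, Sgip1 on the other strand, and Syt14 and Bach2 on their own strand. No source used here states whether counting kept strands apart, so reads from those overlaps may be shared.

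The 250 bases before the RefSeq start (GRCm38.p6) of the 3 genes that also moved in the acute comparison are shown, each read 5′ to 3′ on the gene's own strand, because their direction could be compared between the designs. Capitals mark any of the 8 motifs searched on both strands, namely TATAAA (core promoter box), CACGTG (E-box), TGGGAA (RBPJ), TGTGGT (RUNX), TGA and TCA with any base between (AP-1 and BACH2 core), TGACGTCA (cAMP response element), GGGCGG (GC box) and CCGGAA (ETS core), or their reverse complements. The windows are chr9:14859960-14860209 (Gpr83), chr5:34288325-34288574 (Zfyve28) and chr4:102759885-102760134 (Sgip1), and the RefSeq starts of Zfyve28 and Sgip1 lie inside the spans given by GENCODE.
Gpr83: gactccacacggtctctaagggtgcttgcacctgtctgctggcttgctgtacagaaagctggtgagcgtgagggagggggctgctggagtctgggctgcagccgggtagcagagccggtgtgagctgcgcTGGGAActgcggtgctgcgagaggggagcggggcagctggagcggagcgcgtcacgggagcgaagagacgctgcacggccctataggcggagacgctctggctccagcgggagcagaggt
Zfyve28: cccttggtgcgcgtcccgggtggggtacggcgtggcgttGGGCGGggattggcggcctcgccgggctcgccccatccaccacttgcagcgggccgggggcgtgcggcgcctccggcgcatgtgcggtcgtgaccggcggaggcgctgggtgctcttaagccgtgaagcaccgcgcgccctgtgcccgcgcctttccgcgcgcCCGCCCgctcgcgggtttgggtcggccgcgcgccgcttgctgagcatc
Sgip1: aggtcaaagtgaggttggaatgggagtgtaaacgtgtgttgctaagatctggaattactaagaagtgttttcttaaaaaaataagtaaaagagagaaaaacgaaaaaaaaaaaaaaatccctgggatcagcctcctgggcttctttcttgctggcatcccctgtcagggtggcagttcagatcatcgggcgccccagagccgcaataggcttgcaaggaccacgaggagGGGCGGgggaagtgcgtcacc

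The 3 windows differed in base composition. Zfyve28 held 41 CpG dinucleotides and Gpr83 held 18, against a median of 6 (quartiles 2 and 16) over 32851 RefSeq promoters, while Sgip1 held 8. The one match in Gpr83 was TGGGAA, 120 bases before the start, a run found in 21.6% of all promoters. Zfyve28 and Sgip1 held GGGCGG alone, which was present in 32.7% of all promoters. None of the 8 RefSeq entries of the 7 genes held TATAAA, the AP-1 and BACH2 core or TGACGTCA, which were present in 12.4%, 6.75% and 1.55% of all promoters. A match or its absence describes these letters in this window.

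The G protein-coupled receptor gene Gpr83 was higher in the second wave than in any other survival library. It had 475, 684 and 232 normalized counts in the second wave, against 97.8, 101 and 88.6 in the first wave and 60.2, 77.5, 84.7 and 86.0 in WT survival. The lowest second-wave library, with 232, still lay above the highest of the other 7, and the second-wave mean was 5.45 times theirs. On the log2(value + 1) scale the difference between the second wave and the other 7 was 2.32 (SE 0.31). Gpr83 also varied most among the second-wave libraries in absolute terms (464 ± 226, SD, n = 3).

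The surface ligand gene Cd200 was almost silent in the second wave. It had 3.28, 8.74 and 21.5 normalized counts there, against 164, 91.1 and 179 in the first wave and 22.1, 62.1, 55.4 and 86.3 in WT survival. The second wave lay below the other 7 by the narrowest margin of the 7 genes, because WT survival 1, at 22.1, was only 1.03 times the highest second-wave library. The mean of the other 7 was 8.43 times that of the second wave, and the log2 difference was -3.02 (SE 0.54). It was -3.62 without second-wave library 3 and -2.42 without second-wave library 1. In second-wave library 1, 1 read was worth roughly 0.8415 normalized counts, an estimate that 60.3% of its values under 8 fitted.

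The 3 membrane-trafficking genes were all lower in the second wave. Syt14 had 129, 255 and 133 normalized counts in the second wave, against 1091, 1059 and 750 in the first wave and 670, 692, 646 and 740 in WT survival. The groups were far apart, with the other 7 at 4.68 times the second wave on average (log2 difference -2.26, SE 0.22), and Syt14 was also higher in every first-wave library than in any WT survival library.

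Sgip1 had 1183, 1054 and 1308 in the second wave, against 2267, 2501 and 2105 in the first wave and 2572, 2669, 2307 and 2609 in WT survival. Its difference was the smallest of the 7 (log2 -1.04, SE 0.13), with the other 7 at 2.06 times the second wave. Zfyve28 had 159, 168 and 158 normalized counts in the second wave, against 623, 532 and 386 in the first wave and 431, 426, 497 and 666 in WT survival. Its second-wave libraries were the tightest of any gene (162 ± 5.27, SD, n = 3), and the other 7 stood at 3.15 times that level (log2 difference -1.62, SE 0.21).

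Gmfg, the actin debranching factor, had 148, 125 and 183 normalized counts in the second wave, against 508, 411 and 434 in the first wave and 547, 575, 525 and 363 in WT survival. The groups did not overlap, and the other 7 had 3.16 times the second-wave mean (log2 difference -1.65, SE 0.21). Bach2, the transcriptional repressor, had 86.4, 24.8 and 66.8 normalized counts in the second wave, against 526, 334 and 183 in the first wave and 220, 627, 404 and 288 in WT survival. Its values spread widely in all 3 groups, yet every second-wave library was below every other one, and the other 7 had 6.22 times the second-wave mean (log2 difference -2.67, SE 0.42).

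So 1 gene was higher and 6 were lower in the second wave with no overlap, which the choice of the genes fixed. Over all 14286 genes tested in the survival table, 3.85% separated the second wave from the other 7 libraries, 1.71% higher and 2.14% lower, and 0.287% passed an adjusted p of 0.05 (limma, Benjamini-Hochberg).

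**Figure D1:**
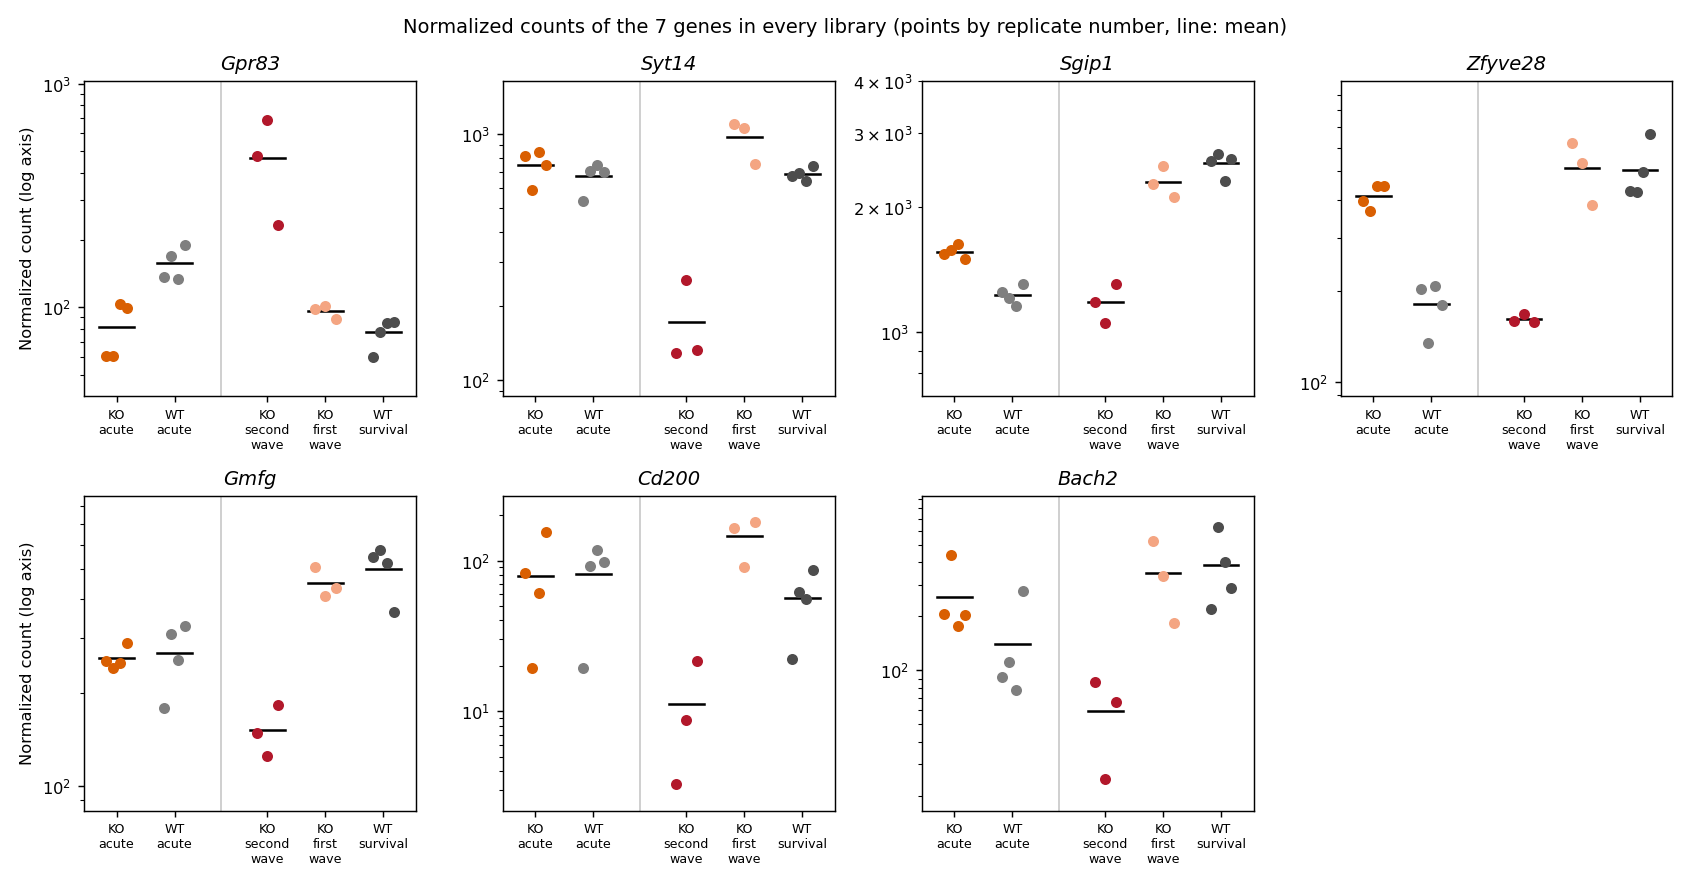
Normalized counts of the 7 genes in every library, on log axes, with a point per library in replicate order and a line at each group mean; the acute and survival tables, parted by the grey line, were normalized separately. Gpr83 sits higher, and the other 6 genes lower, in the 3 second-wave libraries than in the other 7 survival libraries.

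The first wave carried the same deletion and treatment as the second wave, but its values overlapped those of WT survival in most of the 7 genes. The genes were chosen for a second wave apart from both of these groups, so their likeness is partly fixed by the choice. Between the first wave and WT survival, 3 of the 7 genes did not overlap, against 8% of all genes tested. These were Gpr83 (log2 difference 0.32, SE 0.34), Syt14 (0.47, SE 0.25) and Cd200 (1.43, SE 0.59), all higher in the first wave. For the other 4 the difference ranged from -0.16 (Bach2) to 0.02 (Zfyve28). In the fit across all 14286 genes, limma called 0 between the first wave and WT survival at an adjusted p of 0.05, and 1146 had an unadjusted p below 0.05. Syt14 and Cd200 were therefore higher in the first wave and lower in the second wave than in WT survival, at log2 differences from WT of 0.47 and -2.06 for Syt14 and 1.43 and -2.40 for Cd200.

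The acute libraries asked how the 7 genes stood 48 h after treatment, in mice whose leukemia was already overt. All 7 passed the filter on low values (a mean of at least 10). In limma with Benjamini-Hochberg adjustment over 14184 genes, 3 of the 7 passed an adjusted p of 0.05, against 12.6% of all genes (4.58% higher and 8.07% lower in KO). Zfyve28 and Sgip1 rose and Gpr83 fell. In the same 3 genes the KO and WT libraries did not overlap, against 19% of all genes (8.04% higher and 11% lower in KO). An exact two-sided permutation test gave an unadjusted p = 0.0286 for each, the smallest that 4 against 4 libraries allow. Any gene without overlap reaches that value, so it adds nothing to the lack of overlap.

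Zfyve28 had the firmest acute change. It had 399, 370, 447 and 445 normalized counts in KO acute, against 204, 134, 208 and 180 in WT acute, so that every KO library was above every WT library. The means were 415 ± 37.2 in KO acute and 181 ± 33.7 in WT acute (SD, n = 4 each), a log2 difference of 1.21 (SE 0.18, limma adjusted p = 0.00163). The call held in 20 of 20 alternative analyses, at differences of 1.07 to 1.64. In the survival libraries the same gene was lower in the second wave.

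Gpr83 had 60.8, 60.8, 104 and 99.4 normalized counts in KO acute, against 136, 170, 134 and 190 in WT acute. Every KO library was lower, with means of 81.2 ± 23.6 in KO acute and 157 ± 27.0 in WT acute (SD, n = 4 each) and a log2 difference of -0.98 (SE 0.26, limma adjusted p = 0.0265). The direction was the opposite of that in the second wave. The limma adjusted p missed 0.05 without WT acute 2 (0.0716), WT acute 4 (0.0920), KO acute 1 (0.0662) or KO acute 2 (0.0602), and the call held in 13 of 20 alternative analyses.

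Sgip1 had 1536, 1574, 1626 and 1497 normalized counts in KO acute, against 1245, 1205, 1154 and 1306 in WT acute. The groups did not overlap, but the rise was small, at a log2 difference of 0.34 (SE 0.10, limma adjusted p = 0.0449). Leaving out any 1 of the 8 acute libraries took the adjusted p past 0.05, to between 0.0616 and 0.115, while the difference stayed between 0.32 and 0.37. The call held in 7 of 20 alternative analyses and was also lost with no filter on low values (limma adjusted p = 0.0603) and after rescaling by trimmed means (0.0725). In the second wave Sgip1 was lower.

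The other 4 genes did not pass the acute test. Bach2 had 207, 438, 177 and 204 normalized counts in KO acute, against 92.4, 111, 77.8 and 278 in WT acute. In each group 1 library stood well above the other 3, and the groups overlapped through WT acute 4. The log2 difference of 0.96 (SE 0.37) had a limma adjusted p of 0.108, and it was 1.36 with an adjusted p of 0.0243 without WT acute 4 and 0.67 with an adjusted p of 0.263 without KO acute 2.

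Syt14 had 812, 592, 845 and 745 normalized counts in KO acute, against 532, 707, 747 and 701 in WT acute (log2 difference 0.15, SE 0.16, limma adjusted p = 0.555). Gmfg had 254, 240, 249 and 290 in KO acute, against 179, 309, 255 and 329 in WT acute (log2 difference -0.02, SE 0.20, limma adjusted p = 0.966). In both genes the KO and WT libraries overlapped, and the differences were within their spread. Cd200 had 83.0, 19.4, 61.3 and 154 normalized counts in KO acute, against 19.5, 92.0, 118 and 97.8 in WT acute, a scatter that gave a log2 difference of -0.11 with an SE of 0.61 (limma adjusted p = 0.931). That SE was the largest of the 7 genes.

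**Figure D2:**
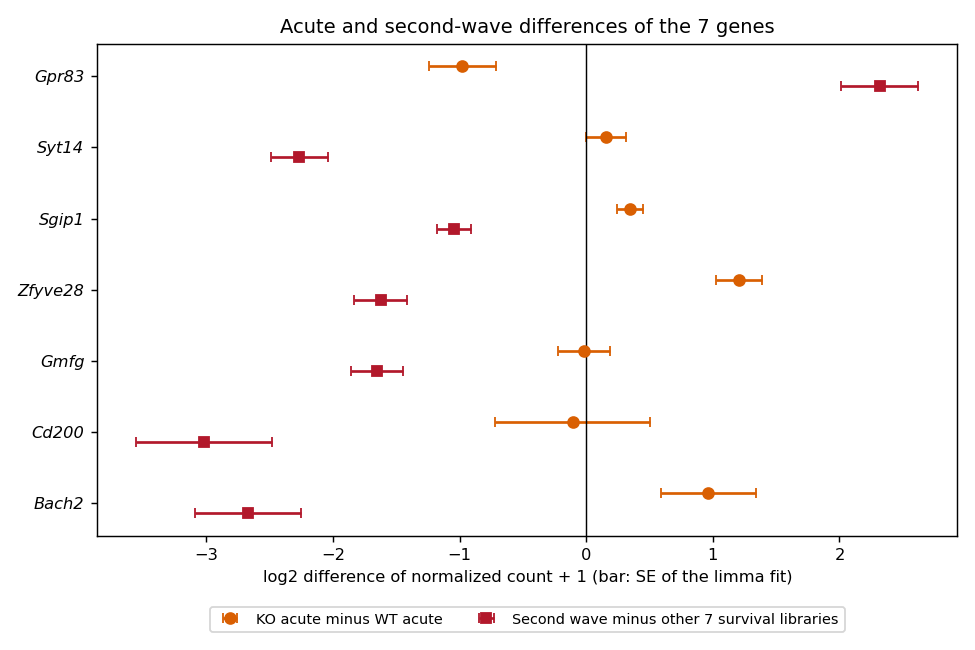
Differences of the 7 genes on the log2(value + 1) scale in KO acute minus WT acute (orange circles) and in the second wave minus the other 7 survival libraries (red squares), with bars for the SE of the limma fit. Gpr83, Sgip1 and Zfyve28 lie on opposite sides of 0 in the 2 comparisons, at -0.98, 0.34 and 1.21 in the acute one and 2.32, -1.04 and -1.62 in the second wave.

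Set side by side, the acute and second-wave differences had opposite signs in Gpr83, Sgip1 and Zfyve28, which had an acute call, and in Syt14 and Bach2, which had none. Gmfg and Cd200 had the same sign in both. The differences of Gmfg and Cd200 in the acute libraries were close to 0, and their sign turned under other settings. Across the 526 genes that separated the second wave and were tested in both tables, 54.6% had opposite signs. Among the 64 of those with an acute call, 44 had opposite signs (68.8%). Over all 526 the split was thus near even, at 287 opposite and 239 the same. Opposite signs prevailed among the 64 with an acute call, and no difference between the 7 genes and either background was tested.

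**Figure D3:**
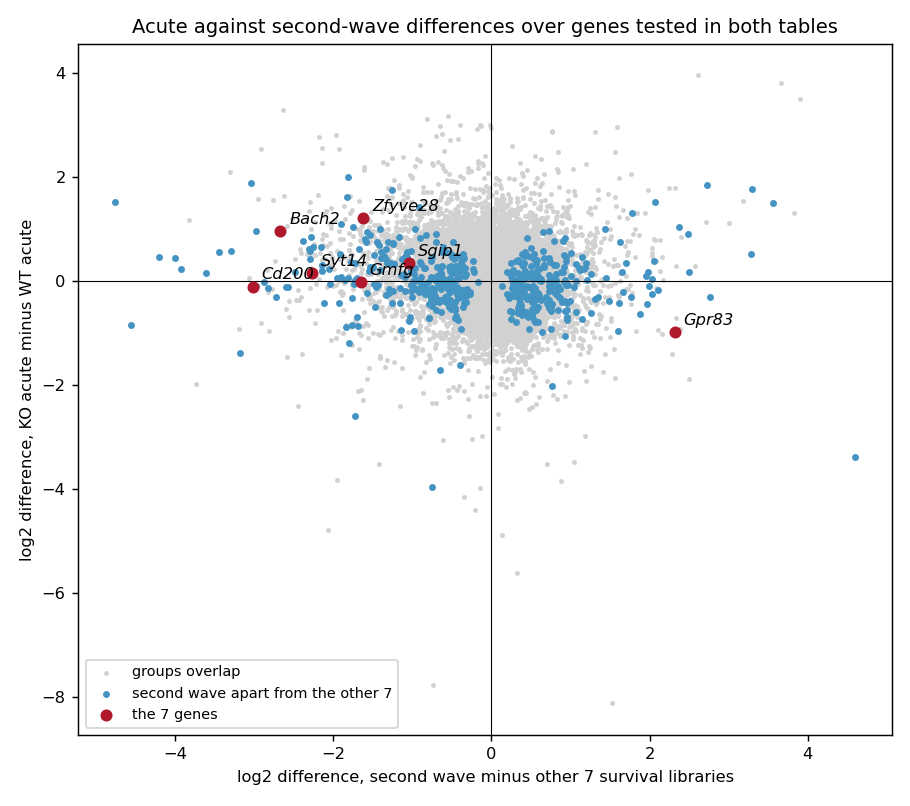
Log2 difference in the acute comparison (KO minus WT, vertical) against that of the second wave minus the other 7 survival libraries (horizontal) for all genes tested in both tables, in grey where the second wave overlaps the other libraries and in blue where it does not, with the 7 genes in red. Gpr83 lies in the lower right (-0.98 and 2.32), and Bach2, Zfyve28, Syt14 and Sgip1 in the upper left.

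The genes most like each member across the 10 survival libraries were read from Pearson's r of log2(value + 1). Such an r describes how these libraries fell, since the step between the second wave and the rest dominates it, and r over the 8 acute libraries is given as a second reading. Ccnd1, which encodes cyclin D1 and drives the G1 phase, was among the 3 nearest genes of Gpr83. Ccnd1 averaged 539 normalized counts in the second wave and 81.3 in the other 7, with r = 0.911 to Gpr83 in the survival libraries but 0.142 in the acute ones. Zfp704, a zinc finger gene, was nearest to Gpr83 in the survival libraries (r = 0.931) and had an r of 0.895 in the acute ones.

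Nlrc5, the transactivator of MHC class I genes, was among the 3 nearest genes of Sgip1 (r = 0.973), Gmfg (0.982) and Bach2 (0.934). It averaged 122 normalized counts in the second wave and 453 in the other 7, and it rose in KO acute (log2 difference 1.10, limma adjusted p = 0.0214), the pattern of Sgip1 and Zfyve28. In the acute libraries its r was 0.708 to Sgip1, 0.492 to Bach2 and -0.277 to Gmfg. Tubb2a, a beta-tubulin gene, was nearest to both Gmfg (0.984 in survival, 0.766 in acute) and Bach2 (0.948 and 0.191). Syt14 and Zfyve28 were among each other's 3 nearest genes (r = 0.945 in survival and 0.357 in acute libraries). For Cd200 the nearest gene was Sf3b3, a splicing factor gene, at r = 0.981 in survival and -0.0087 in acute libraries.

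The chromosomal neighbours of the 7 genes differed between the second wave and the other 7 libraries by -1.32 to 0.84 on the log2 scale. Of 14 nearest measured genes, 1 on each side of every member, 2 separated the second wave (14.3%, against 3.85% of all genes). Izumo1r, the folate receptor family gene expressed by regulatory T cells, lies 15 kb from Gpr83 and averaged 155 normalized counts in the second wave and 91.3 in the other 7 (log2 difference 0.84). Sertad4, 35.5 kb from Syt14, averaged 405 in the second wave and 862 in the other 7 (log2 difference -1.0). Mxd4 beside Zfyve28 differed by -0.70 and Pak4 beside Gmfg by -0.59, with overlapping groups, and Casp8ap2, 29.3 kb from Bach2, by 0.11. Samd4b, which overlaps Gmfg on the other strand, had a mean of 229 in the second wave and 254 in the other 7, against the lower level of Gmfg in the same libraries. Of the 14, Pak4 was the one past the acute threshold (log2 difference 0.97, limma adjusted p = 0.0338).

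**Figure D4:**
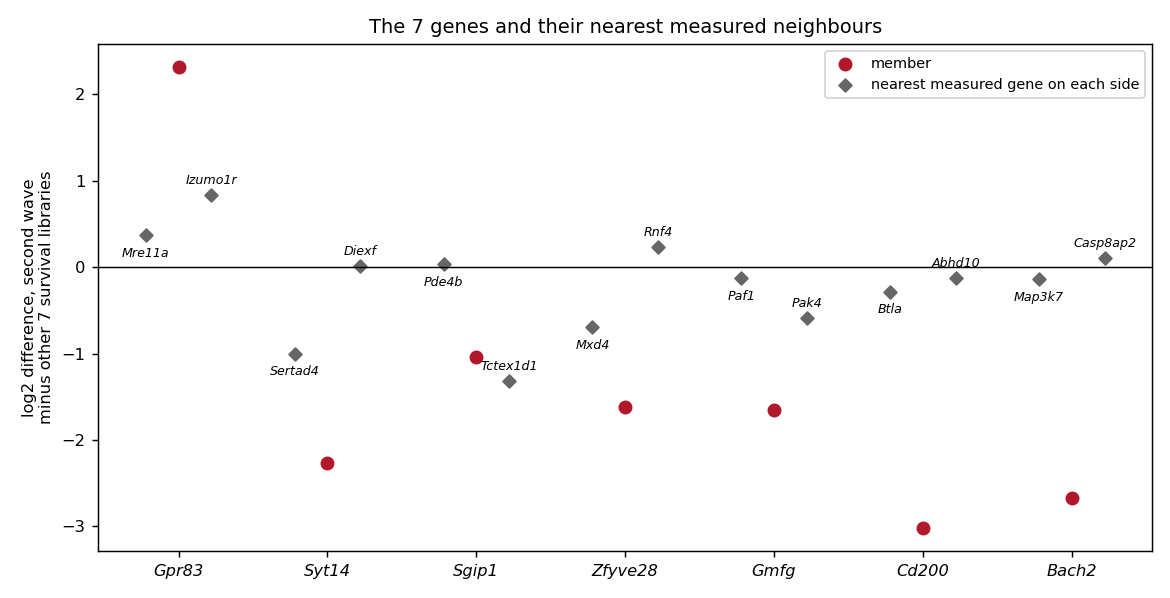
Log2 difference of the second wave minus the other 7 survival libraries for each of the 7 genes (red circles) and for the nearest measured gene on either side (grey diamonds). Gpr83 lies at 2.32 while its neighbours lie at 0.37 and 0.84, and beside Sgip1 the low-count gene Tctex1d1 lies at -1.32 with overlapping groups.

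Families and pathways of the 7 genes were counted in the acute comparison with the members themselves left out, beside a median log2 difference of 0.03 and shares of 4.58% higher and 8.07% lower over all genes. Of 15 glucocorticoid-induced genes other than Gpr83, 0 rose and 3 fell (median -0.0023), namely the interleukin-7 receptor gene Il7r (-1.11), the glucocorticoid receptor gene Nr3c1 (-0.37) and the chemokine receptor gene Cxcr4 (-0.47). That split depended on the setting, with 1 higher and 1 lower after quantile normalization, with the trend on length, GC content and abundance removed and without KO acute 1 and 2. Of 15 regulatory T cell genes other than Gpr83, Lrrc32 rose (1.45) and Nrp1 (-0.51) and Ikzf2 (-0.27) fell (median -0.15), and Foxp3, the lineage factor, averaged 12.4 normalized counts in KO acute and 9.42 in WT acute.

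Around the trafficking genes, 0 to 3 genes of a list passed in either direction. Of 12 synaptotagmins and relatives other than Syt14, 0 passed in limma and 4 had an unadjusted p below 0.05 (median 0.61), and Syt16, the closest paralog of Syt14, was below the filter. Of 33 genes of clathrin-mediated endocytosis other than Sgip1, 0 rose and 3 fell (median 0.09), namely the clathrin chain genes Cltc (-0.57) and Clta (-0.68) and the adaptor gene Ap2m1 (-0.78). The FCHo genes Fcho1 (-0.01) and Fcho2 (-0.04) did not pass. Of 35 FYVE and endosomal lipid-binding genes other than Zfyve28, Zfyve1 rose (0.90) and Plekhf2 fell (-0.62).

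Of 33 actin genes around Gmfg, 0 rose and 6 fell (median -0.08), led by Brk1, a WAVE complex subunit (-0.76), the Arp2/3 genes Actr3 (-0.54), Actr2 (-0.47) and Arpc5 (-0.55), and including the cofilin genes. The paralog Gmfb differed by -0.43 without passing (limma adjusted p = 0.105). After quantile normalization 1 of the 33 fell. Of 20 inhibitory ligands and receptors around Cd200, 0 rose and 2 fell, Lgals9 (-0.87) and Cd47 (-0.61), while the median was 0.44 and the receptor Cd200r1 differed by 0.46 without passing. Of 14 partners of BACH2 and AP-1 factors, limma called 0 and 3 had an unadjusted p below 0.05, with Bach1 at -0.38 (limma adjusted p = 0.0868). Of 10 genes repressed by BACH2, Irf4 fell (-0.63), and Prdm1, which encodes BLIMP1, differed by 0.78 without passing (limma adjusted p = 0.297).

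In the second wave 10 of the 191 genes of these lists that were tested in the survival table lay apart from the other 7 libraries (5.24%, against 3.85% of all genes), 4 higher and 6 lower, all named here after their values were seen. The higher ones were Izumo1r, the scavenger receptor gene Cd163 (log2 difference 1.07) and the endocytosis genes Sh3gl3 (0.79) and Aak1 (0.50). The lower ones were the cell death gene Bcl2l11 (-0.57), the cytokine gene Il10 (-1.57), the actin-binding gene Cotl1 (-0.99), the AP-1 gene Jun (-1.69) and the inhibitory receptor genes Ctla4 (-3.61) and Pdcd1 (-1.92). Ctla4 averaged 12.3 normalized counts in the second wave, 59.9 in the first wave and 144 in WT survival.

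**Figure D5:**
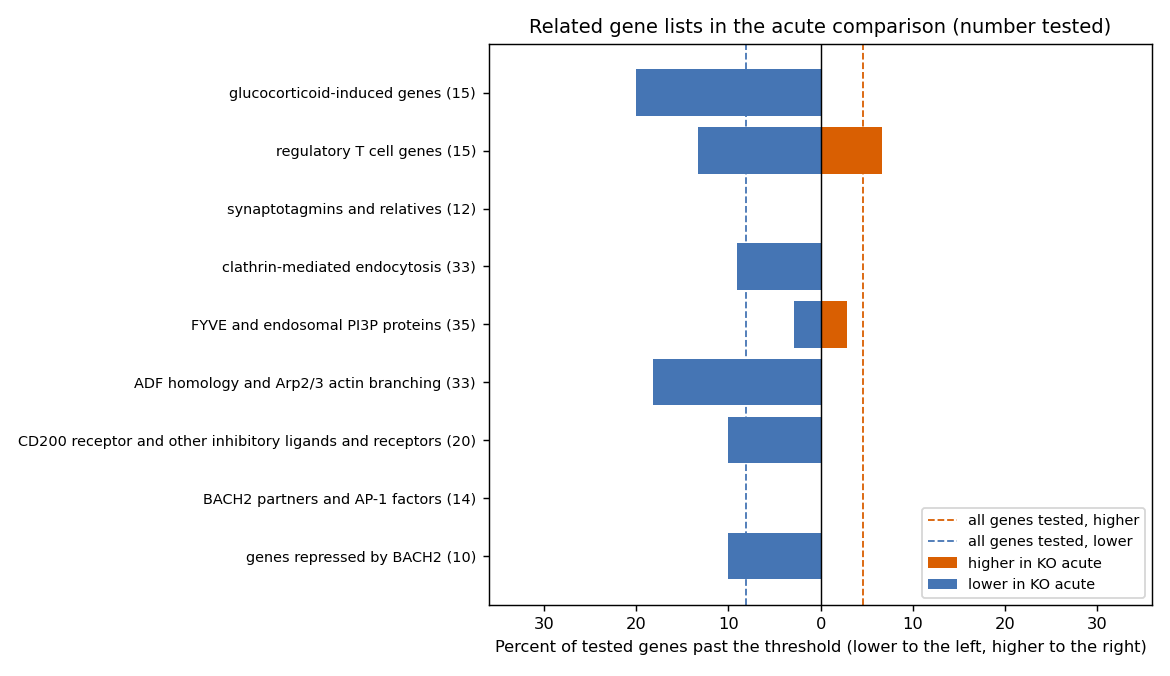
Share of tested genes past the acute threshold in each list related to the 7 genes, lower in KO to the left and higher to the right, with dashed lines at the shares over all genes tested (8.07% and 4.58%). The synaptotagmins and the BACH2 partners have no bar, and the bar of 20% lower in the glucocorticoid-induced genes stands for 3 of 15 genes, a count that was 1 after quantile normalization.

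Markers of other cells moved with some of these groups. The 11 markers of B cells, a cell type that expresses Bach2 and Cd200, summed to 147 to 295 normalized counts in the second wave, 331 to 490 in the first wave and 407 to 639 in WT survival, so the second wave was below every other survival library for them too. They took 0.00146% to 0.00304% of all normalized counts in the second wave. Taken singly, 0 of the 7 B cell markers past the filter in the survival libraries set the second wave apart. Their median log2 difference was -1.26. Of the 11 markers 0 were at 0 in all second-wave libraries, and 6, Cd79a, Cd79b, Pax5, Blk, Fcrla and Cd22, were at 0 in at least 1 of them. In the acute libraries the sum was 401 to 1215 in KO and 357 to 827 in WT, and KO acute 2, with the highest sum, also had the highest Bach2 value. WT acute 4, with the highest Bach2 of its group, had a B cell sum of 472, below that of WT acute 1 (827). The 6 markers of NK cells, of which 0 were at 0 in all libraries of a group, summed to 341 to 595 in the second wave, against 658 to 784 in the first wave and 640 to 911 in WT survival, again with the second wave below every other library.

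In the acute libraries the summed normalized counts of the markers of 3 other cell types did not overlap between KO and WT. Of single genes, 19% did not overlap. Among the markers tested singly, limma called 0 of 4 for NK cells, 1 of 3 (lower) for plasma cells and 1 of 5 (higher) for stroma and endothelium. The 6 NK cell markers summed to 223 to 310.6 in KO acute and 311.5 to 469 in WT acute. The 4 plasma cell markers summed to 1127 to 1210 in KO acute and 1282 to 1531 in WT acute. As shares of all normalized counts, the NK cell markers overlapped (0.00314% to 0.0044% in KO acute, 0.00408% to 0.00584% in WT acute). The plasma cell shares overlapped too (0.0156% to 0.0171% in KO acute, 0.016% to 0.02% in WT acute). Those of stroma and endothelium did not (0.0206% to 0.0229% in KO acute, 0.0139% to 0.0168% in WT acute). The 9 markers of stroma and endothelium summed to 1463 to 1660 in KO acute and 1117 to 1308 in WT acute, so they were higher in every KO library, where the NK and plasma cell sums were lower. The 13 markers of neutrophils and precursors summed to 1728 to 4903 in KO acute and 977 to 1899 in WT acute, with overlap. Limma called 2 of these 13 higher in KO acute (15.4%, against 4.58% of all genes), and their median log2 difference was 0.74. KO acute 1 and 2, with the lowest Gpr83 values (60.8 each), had the highest neutrophil sums (3995 and 4903). The part of all these cells in the values of the 7 genes was not tested.

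The 18 thymocyte and T-ALL markers were all detected in every library and took 1.03% to 1.18% of normalized counts in the second wave, 1.29% to 1.56% in the first wave and 0.846% to 1.34% in WT survival. They took 0.907% to 1.26% in KO acute and 1.22% to 1.44% in WT acute. Their sums did not overlap in the acute libraries, at 64322 to 89366 normalized counts in KO and 93309 to 110977 in WT. Of the 18 markers, limma called 1 higher (5.56%, against 4.58% of all genes) and 6 lower in KO acute (33.3%, against 8.07%). Measured per T-ALL marker level, a setting chosen after seeing the data that raised the median acute difference of all genes to 0.46, Gpr83 no longer passed (log2 difference -0.55, limma adjusted p = 0.133), while Syt14 (0.58, limma adjusted p = 0.0158) and Bach2 (1.39, limma adjusted p = 0.0242) did. Gpr83 lay further below that median than below 0, and Syt14 lay close to it. The counts of the lists turned in the same setting. The genes called higher and lower were 8 and 0 for actin, 9 and 0 for clathrin-mediated endocytosis, 13 and 0 for the FYVE list, 7 and 0 for the synaptotagmins, and 4 and 1 for the glucocorticoid-induced genes. They were 4 and 0 for the inhibitory ligands and receptors, 3 and 0 for the BACH2 partners, 1 and 0 for the regulatory T cell genes and 0 and 0 for the genes repressed by BACH2.

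Across the series, Acly itself averaged 733 ± 85.1 normalized counts in KO acute and 1256 ± 122 in WT acute (SD, n = 4 each; log2 difference -0.78, limma adjusted p = 0.00266). It averaged 576 ± 75.3 in the second wave, 727 ± 71.8 in the first wave and 1697 ± 154 in WT survival (SD, n = 3, 3 and 4), so every KO group was lower than its WT group. Normalized totals were 7.07 to 8.03 M in the acute libraries and 9.19 to 10.4 M in the survival libraries. The reads behind them were estimated at 6.08 to 12.7 M, only roughly, because values were not whole multiples of 1 read. KO acute 1 and 2 had 4.80% and 5.27% of normalized counts on mitochondrial genes, against 2.35% and 2.70% in the other KO acute libraries and 3.50% to 3.69% in WT acute. Without KO acute 1 and 2, of the 7 genes Zfyve28 alone passed (1.31, limma adjusted p = 0.00694), with Gpr83 at -0.61 (0.189) and Sgip1 at 0.35 (0.117). Second-wave library 1 and WT survival 1 and 2 stood apart on the first principal components, and without these 3 the second-wave difference was 2.11 for Gpr83 and -2.97 for Bach2.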

How the data were processed

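RNA was measured in 18 libraries of leukemic mouse spleen. The authors deposited signal values, that is, read counts estimated with kallisto 0.44.0 on GRCm38 and divided by DESeq size factors, as the submitters' processing notes have it. The version of DESeq, the annotation and the strand setting were not given in the sources used here. Because each table was normalized on its own, tests stayed within a table. Values were not whole multiples of 1 read (37.5% to 63.5% of those under 8 were, within 0.02), so count models were not used.

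Values were transformed to log2(value + 1), which understates changes of low genes, and genes averaging at least 10 were fitted with limma 3.58.1 in R 4.3.3 (lmFit, eBayes with trend) with Benjamini-Hochberg adjustment over all genes tested, at a threshold of 0.05. The acute fit held 8 libraries and the survival fit held 10 in 3 groups. The members, lists and tests were chosen with earlier results of these data known. Besides the members and Acly, the text names the 3 most alike genes of a member, its nearest measured neighbours, up to 4 genes of each list with the smallest adjusted p, and named paralogs and partners. Coordinates came from GENCODE M21 and promoters from RefSeq, where all 7 symbols matched. Some items that the selection rule and the marker lists hold are not reported here, so counts over the 7 genes do not cover every gene of that rule. The series design text gives other sample numbers than the 10 KO and 8 WT samples listed, which were used. Alternatives varied the pseudocount, filter, scaling, test and libraries.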

Additional observations from a re-analysis of the deposited data

Results flagged for a closer look

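Bach2 had 1 library far above the other 3 in both acute groups, by the Dixon criterion at its 95% critical value. KO acute 2 had 438 normalized counts and WT acute 4 had 278, with gaps to the next library of 0.884 and 0.834 of the group's range. Chance alone flags about 1 group in 20 if values are normally distributed, and 21 groups were searched. The criterion was applied to normalized counts, not to the log2(value + 1) scale of the tests, on which high values stand out less. KO acute 2 also had the highest summed B cell markers of the acute libraries (1215) and the highest mitochondrial share (5.27%), while WT acute 4 had a B cell sum of 472 and a mitochondrial share of 3.58%, within the range of its group. Their part in the Bach2 values was not tested.

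For 3 of the genes every KO library lay on one side of WT in the acute design and every second-wave library on the other side of WT in the survival design. Gpr83 differed from WT by -0.98 (log2) in KO acute and by 2.45 in the second wave. Sgip1 differed by 0.34 and -1.11, and Zfyve28 by 1.21 and -1.61. The choice of the genes fixed the second-wave side. Over all genes tested, 19% did not overlap in the acute design. Among the 64 genes that separated the second wave and had an acute call, 44 (68.8%) had opposite signs. The tables were normalized separately, and the difference between the designs was not tested.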

How the results depend on the processing

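Because the genes were chosen for a second wave apart from the other 7 survival libraries, that separation and its direction under the alternatives say nothing about stability. Of 140 acute differences, 14 changed sign, all for genes without a call: Gmfg (-0.02) became 0.0031 after quantile normalization, 0.10 with the trend on length, GC content and abundance removed, with or without the replicate block, 0.043 without KO acute 1 and 2, and 0.41 per T-ALL marker level, and Cd200 (-0.11) became 0.52 without KO acute 1 and 2 and 0.31 per T-ALL marker level. Leaving out 1 library gave -0.20 to 0.094 for Gmfg and -0.69 to 0.44 for Cd200. The count of the 7 genes past the acute threshold, 3, became 1 without a trend in eBayes and 1 without KO acute 1 and 2, and leaving out 1 library gave 1 to 2, with 1 without KO acute 1, KO acute 2 or WT acute 2. The count over all genes, 1794, became 693 without a trend in eBayes, 903 without KO acute 1 and 2, 1111 with the replicate block and the trend removed and 3190 per T-ALL marker level, and leaving out 1 library gave 983 (WT acute 4) to 1634, with 1179 without WT acute 2. The causes were not tested.

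Of those 1794 genes 63.8% were lower in KO, against 52.7% after quantile normalization (746 higher and 832 lower), 52.2% with the trend removed, 74.3% without KO acute 1 and 2 and 6.05% per T-ALL marker level, which moved the median of all genes to 0.46. With fewer libraries more genes separate by construction: 550 genes separated the second wave, 937 without WT survival 1 and 2, 1936 without those and second-wave library 1, and 617 to 1346 with 1 library left out, where 1114, 1256 and 1346 were without a second-wave library. Same-numbered libraries did not deviate together (correlations -0.03 to 0.09), and the replicate block called 1391 genes and 2 of the 7, with Sgip1 at an adjusted p of 0.0972 (limma). It changed no other call among the 7. The lowest value of the 7 genes was that of Cd200 in a second-wave library, 3.28 normalized counts, where few reads limit the precision.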
